A study of Homo sapiens with 18 samples.

Results

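GDF15, INHBE, TGFB1 and GDF11 encode secreted ligands of the TGF-beta superfamily, and their messenger RNA was followed in 18 libraries of AMO1 and XG1 cells kept for 24 h in DMSO or in the CDK7 inhibitor YKL-5-124. The 4 genes were taken by name from the 26249 gene rows of each library, and all 4 were found in all 18. They were chosen by measured values of these same libraries: GDF15 was picked because it was higher in inhibitor in both lines, INHBE because it was lower in AMO1. Those values are therefore given as a description with no test. Since the DMSO libraries entered that choice, the levels of GDF15 and INHBE in DMSO are a description as well. TGFB1, GDF11 and, within XG1, INHBE were tested.

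Ligands of this superfamily are made as precursors, cut by proprotein convertases such as furin, and released as dimers. TGF-beta 1, the product of TGFB1, is held in a latent complex and signals through the receptors TGFBR1 and TGFBR2 to SMAD2 and SMAD3, which enter the nucleus with SMAD4. GDF11, a close relative of myostatin, uses activin type II receptors (ACVR2A and ACVR2B) and the same SMADs. INHBE encodes the beta E subunit that forms activin E. It is known as a liver gene and as a gene induced by amino acid and endoplasmic reticulum stress through the transcription factor ATF4. GDF15 is a distant member that signals in the brainstem through GFRAL with the co-receptor RET, and it is induced in many cell types by EGR1 and by ATF4 with its partner CHOP (gene DDIT3). CDK7 is the kinase of the general transcription factor TFIIH that phosphorylates RNA polymerase II, and it also activates cell cycle kinases.

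The groups were AMO1 in DMSO, 100 nM and 1000 nM, and XG1 in DMSO, 100 nM and 1000 nM, with 3 libraries each. Both lines are labelled as multiple myeloma, a cancer of plasma cells, and all groups were grown in serum-containing medium. The libraries were 3' end libraries (QuantSeq), which read the end of each transcript. Values are FPKM as deposited, a unit in which fragments are divided by transcript length. Since a 3' library does not sample the length of a transcript, levels are compared between groups of 1 gene and not between genes. The labels number the replicates without saying that they were separate cultures, so p-values measure only the spread between these samples.

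The sum over genes lay between 431965 and 1553906 FPKM per library, whereas the sum over the 92 ERCC spike-in RNAs lay between 166717 and 187657 FPKM. The mean gene sum was 1515077, 941623 and 600617 FPKM in AMO1 at DMSO, 100 nM and 1000 nM, and 1315368, 1066006 and 964297 FPKM in XG1. The lowest, 431965 FPKM, was AMO1 1000 nM replicate 2. Changes are therefore given on the deposited scale and, where it matters, on a relative scale on which the typical gene does not change (division by median-ratio size factors). The number of reads behind each value is unknown. Among replicates, Spearman's rho across genes was lowest in XG1 at 100 nM (0.817 to 0.956), where replicate 2 stood apart. AMO1 in DMSO held 12 of 13 plasma cell markers at 1 FPKM or more, with a summed level of 8668 to 9680 FPKM. The libraries labelled XG1 in DMSO held 7 of the 13, summing to 104 to 152 FPKM, with IRF4, PRDM1, CD38, SLAMF7, POU2AF1 and CD27 under 1 FPKM. They held 14 of 14 erythroid markers, summing to 5048 to 5469 FPKM in DMSO, 3193 to 4078 FPKM at 100 nM and 3572 to 3921 FPKM at 1000 nM. The plasma cell label thus goes against the markers in these libraries, and the bearing of this on the results for XG1 was not tested.

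The promoters of the genes are shown because stress factors, EGR1 and SP1 are known to act there on members of this group. RefSeq sequences (GRCh38.p14, 250 bases before the start, on the gene's own strand, 5′ to 3′) matched 3 of the 4 genes, without INHBE. Capitals mark matches, on either strand, to the GC box, which SP1 binds and whose letters are GGGCGG. Capitals also mark the TATA box, a core promoter element spelled TATAAA, and the EGR1 motif GCGNGGGCG. GDF15 lies at chr19:18385908-18386157 on the plus strand, TGFB1 at chr19:41353923-41354172 on the minus strand and GDF11 at chr12:55742872-55743121 on the plus strand.
GDF15: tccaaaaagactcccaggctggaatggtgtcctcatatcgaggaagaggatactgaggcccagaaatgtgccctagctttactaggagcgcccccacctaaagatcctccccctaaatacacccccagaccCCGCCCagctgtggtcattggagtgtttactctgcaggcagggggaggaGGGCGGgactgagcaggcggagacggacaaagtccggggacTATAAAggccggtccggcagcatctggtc
TGFB1: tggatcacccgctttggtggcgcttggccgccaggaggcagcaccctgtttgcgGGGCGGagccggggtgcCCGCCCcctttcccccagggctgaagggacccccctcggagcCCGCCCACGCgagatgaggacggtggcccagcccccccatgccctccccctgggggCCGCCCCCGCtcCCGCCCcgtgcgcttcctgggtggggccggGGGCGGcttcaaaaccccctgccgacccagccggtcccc
GDF11: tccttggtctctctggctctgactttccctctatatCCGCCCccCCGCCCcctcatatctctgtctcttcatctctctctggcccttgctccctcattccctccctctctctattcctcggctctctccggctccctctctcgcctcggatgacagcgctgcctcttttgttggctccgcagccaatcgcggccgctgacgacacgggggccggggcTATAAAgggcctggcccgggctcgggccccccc
GDF15 and GDF11 each held a TATA box, whose first base was 29 and 33 bases before the start, and 2 GC boxes before the start. TGFB1 held no TATA box, 6 GC boxes and 2 EGR1 matches before the start, each EGR1 match overlapping a GC box. In the 50 bases after the start, which are not printed, GDF15 held 0 GC boxes, TGFB1 1 and GDF11 7, and GDF11 held 1 EGR1 match. Of 35116 promoter windows of 300 bases (250 before to 50 after the start), 11.5% held the TATA motif, 45.0% the GC box and 9.43% the EGR1 motif. None of the 3 windows held the ATF4 response motif TGATGNAAN (CARE, 3.61% of windows), the CRE TGACGTCA (1.85%) or the AP-1 motif TGANTCA (7.71%). These are matches of letters, and the files hold no measurement of binding.

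GDF15, a stress-induced hormone, was higher in inhibitor than in DMSO in both lines. In AMO1 it stood at 49.1, 52.4 and 63.4 FPKM in DMSO, 68.0, 72.5 and 68.6 FPKM at 100 nM, and 179, 122 and 189 FPKM at 1000 nM. The 3 AMO1 groups did not overlap, and 1000 nM replicate 2, the library with the lowest gene sum, was the lowest of its group. In XG1 it stood at 100.1, 87.5 and 122 FPKM in DMSO, 272, 247 and 201 FPKM at 100 nM, and 298, 262 and 301 FPKM at 1000 nM. Both XG1 inhibitor groups lay above DMSO and overlapped each other. The mean at 1000 nM was 2.97 times DMSO in AMO1 and 2.78 times in XG1, and at 100 nM 1.27 and 2.32 times. So most of the XG1 difference was already present at 100 nM, whereas in AMO1 most of it lay between 100 and 1000 nM. On the log2(FPKM + 1) scale the difference from DMSO was 0.34 ± 0.21 (SE) at 100 nM and 1.53 ± 0.21 at 1000 nM in AMO1, and 1.21 ± 0.15 and 1.48 ± 0.15 in XG1. The 100 nM and 1000 nM comparisons of a line share their DMSO libraries. In the RefSeq annotation GDF15 overlaps the microRNA gene MIR3189 and INHBE overlaps a long noncoding RNA. The labels do not state strand use, so reads of such overlapping genes cannot be told apart. The row of MIR3189 itself had group means of at most 0.127 FPKM. At 1000 nM GDF15 ranked 34 from the highest among 10503 fitted genes in AMO1 and 94 among 11810 in XG1. On the relative scale its differences at 1000 nM were 2.50 in AMO1 and 1.66 in XG1.

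INHBE, the activin E subunit, was lower in inhibitor in every library of both lines, to very different depths. In AMO1 it stood at 24.7, 31.7 and 30.4 FPKM in DMSO, 0.95, 0.998 and 1.32 FPKM at 100 nM, and 0.522, 0.775 and 0.837 FPKM at 1000 nM. On the deposited scale the groups did not overlap, and the means in inhibitor were 3.77% and 2.46% of DMSO. On the relative scale the inhibitor groups overlapped each other. Their means there were 1.06 (0.957 to 1.25) at 100 nM and 1.05 (0.640 to 1.48) at 1000 nM, against 20.7 in DMSO. The log2 difference was -3.84 ± 0.18 (SE) at 100 nM, where INHBE ranked 11 from the lowest of 10503 genes, and -4.13 ± 0.18 at 1000 nM. In XG1 it stood at 9.24, 8.44 and 11.2 FPKM in DMSO, 3.41, 2.93 and 2.28 FPKM at 100 nM, and 3.55, 4.69 and 2.84 FPKM at 1000 nM. Both inhibitor groups lay below DMSO and overlapped each other, at 29.9% and 38.4% of the DMSO mean. The XG1 change of INHBE was not a stated reason for the choice, though earlier results of these data were known then. In XG1, INHBE fell by 1.46 ± 0.23 (SE) log2 units at 100 nM (limma, Benjamini-Hochberg adjusted p = 0.00314). At 1000 nM it fell by 1.19 ± 0.23 (limma, adjusted p = 0.00487). The fall was seen in 3 of 3 libraries at each dose. Of all fitted genes in XG1, 10.0% fell at 100 nM and 13.2% at 1000 nM, and 7.25% and 10.3% on the relative scale, where INHBE also fell by 1.29 and 1.02. In XG1, 1000 nM against 100 nM gave 0.27 ± 0.23 for INHBE (limma, adjusted p = 0.744), and 0.390% of genes passed in either direction. Whether fewer cells or less RNA per cell lies behind a lower level cannot be told apart in bulk samples.

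**Figure D1:**
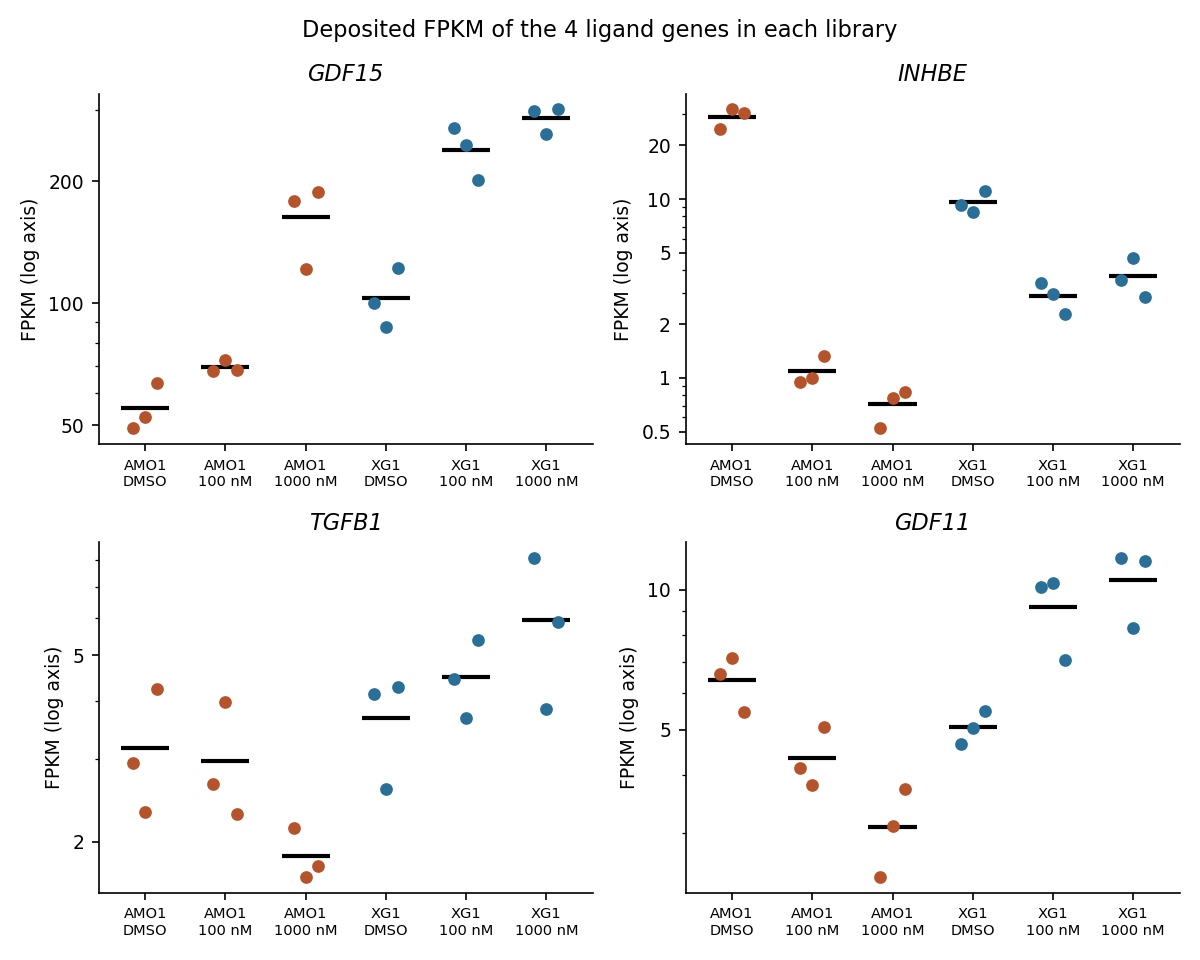
Deposited FPKM (log axis) of the 4 ligand genes in each of the 18 libraries, by line and dose; points are libraries and bars are group means. GDF15 is higher in inhibitor in both lines, INHBE drops below 1.4 FPKM in AMO1 and stays above 2.2 FPKM in XG1, and GDF11 is lower in inhibitor in AMO1 and higher in XG1.

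GDF11, the myostatin relative, moved in opposite directions in the 2 lines on the deposited scale. In AMO1 it stood at 6.59, 7.12 and 5.46 FPKM in DMSO, 4.14, 3.81 and 5.08 FPKM at 100 nM, and 2.41, 3.10 and 3.73 FPKM at 1000 nM. All AMO1 inhibitor libraries lay below all DMSO libraries. GDF11 fell by 0.86 ± 0.19 (SE) at 1000 nM (limma, adjusted p = 0.00140). The difference at 100 nM, -0.47 ± 0.19, did not pass (limma, adjusted p = 0.0770). The median fitted gene stood at -0.77 at 1000 nM and -0.35 at 100 nM, and on the relative scale GDF11 differed by -0.06 at 1000 nM (limma, adjusted p = 0.822) and the call ended. In AMO1, 1000 nM against 100 nM gave -0.39 ± 0.19 (limma, adjusted p = 0.127), where 23.6% of genes passed in either direction.

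In XG1, GDF11 stood at 4.66, 5.06 and 5.50 FPKM in DMSO, 10.1, 10.3 and 7.07 FPKM at 100 nM, and 11.7, 8.26 and 11.5 FPKM at 1000 nM. All 6 inhibitor libraries lay above all 3 DMSO libraries, and the 1000 nM mean was 2.07 times DMSO. GDF11 rose by 0.91 ± 0.21 (SE) at 1000 nM (limma, adjusted p = 0.0134) and by 0.73 ± 0.21 at 100 nM (limma, adjusted p = 0.0440). Genes that rose made up 3.69% of those fitted at 1000 nM and 2.48% at 100 nM, and 9.57% and 7.31% on the relative scale, where GDF11 rose by 1.07 (limma, adjusted p = 0.00156) and 0.90 (limma, adjusted p = 0.00577). The call at 1000 nM ended without DMSO replicate 1 (limma, adjusted p = 0.0549) or without 1000 nM replicate 3 (limma, adjusted p = 0.0590). That at 100 nM ended without any 1 of the DMSO replicates 1, 2 and 3 (limma, adjusted p = 0.134, 0.0989 and 0.0964) or the 100 nM replicates 1 and 2 (limma, adjusted p = 0.0907 and 0.105). It also ended with no filter on low values (limma, adjusted p = 0.108) and in a fit of the 2 groups alone (limma, adjusted p = 0.0765). GDF11 overlaps SARNP in the RefSeq annotation, and since the strand used in counting is not stated by the labels, reads of the 2 genes cannot be told apart. SARNP had group means of 144, 83.2 and 63.0 FPKM in AMO1 and 274, 252 and 242 FPKM in XG1 at DMSO, 100 nM and 1000 nM.

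TGFB1, the founding cytokine of the family, was low throughout, between 1.68 and 8.08 FPKM. In AMO1 it stood at 2.95, 2.31 and 4.24 FPKM in DMSO, 2.65, 3.98 and 2.29 FPKM at 100 nM, and 2.14, 1.68 and 1.78 FPKM at 1000 nM. The 1000 nM libraries lay below all DMSO libraries, and TGFB1 fell by 0.52 ± 0.22 (SE) (limma, adjusted p = 0.0462). Both tested ligands thus fell in AMO1 at 1000 nM, where 65.7% of the 10503 fitted genes did so and 2.51% rose. On the relative scale 24.2% fell and 24.0% rose, neither ligand passed, and TGFB1 turned to 0.17 (limma, adjusted p = 0.552). The TGFB1 call also ended with no filter (limma, adjusted p = 0.163), and without AMO1 DMSO replicate 1 or 3 (limma, adjusted p = 0.0701 and 0.214) or 1000 nM replicate 2 or 3 (limma, adjusted p = 0.113 and 0.0901). At 100 nM TGFB1 differed from DMSO by -0.07 ± 0.22 (limma, adjusted p = 0.838). At that dose 29.5% of AMO1 genes fell and 2.73% rose (17.1% and 14.0% on the relative scale), and neither TGFB1 nor GDF11 passed on either scale. In AMO1, 1000 nM against 100 nM gave -0.45 for TGFB1 (limma, adjusted p = 0.119).

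In XG1, TGFB1 stood at 4.14, 2.59 and 4.28 FPKM in DMSO, 4.45, 3.68 and 5.40 FPKM at 100 nM, and 8.08, 3.84 and 5.90 FPKM at 1000 nM. The groups overlapped. The difference from DMSO was 0.55 ± 0.27 (SE) at 1000 nM (limma, adjusted p = 0.201) and 0.25 ± 0.27 at 100 nM (limma, adjusted p = 0.591), and neither passed on the relative scale.

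**Figure D2:**
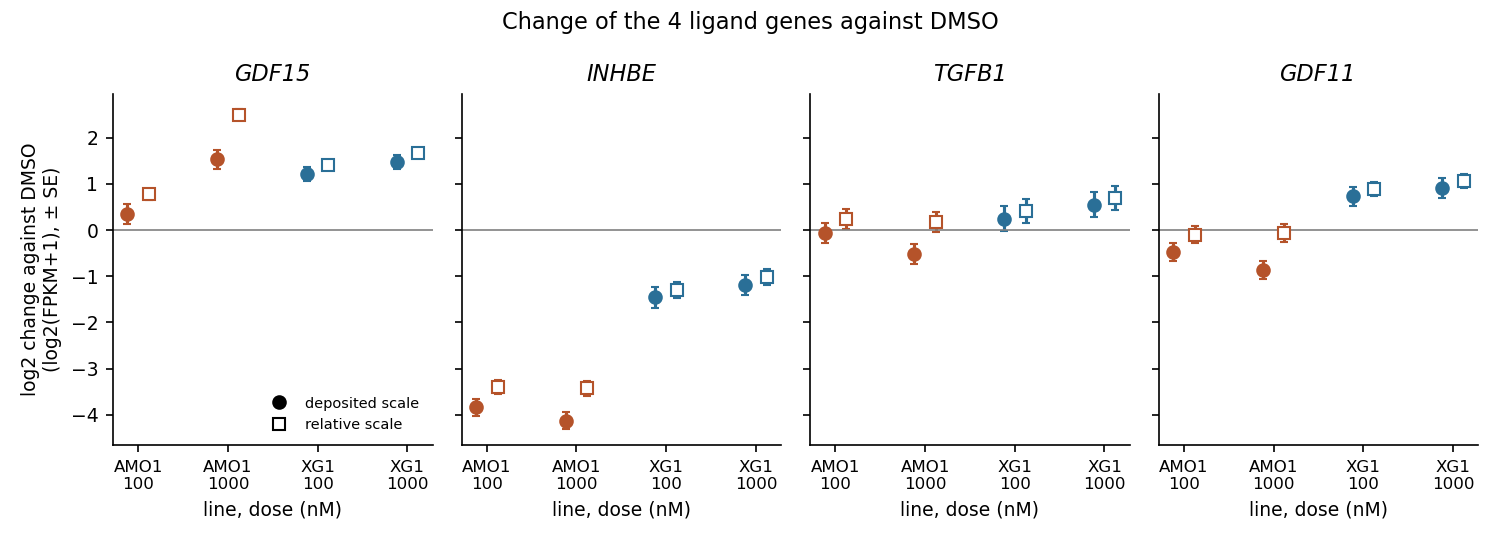
Difference from DMSO of the 4 genes on the log2(FPKM + 1) scale (mean ± SE, 3 libraries per group) for each line and dose; filled circles are the deposited scale and open squares the relative scale. GDF15 and INHBE keep their sign on both scales, whereas GDF11 in AMO1 moves from -0.86 to -0.06 at 1000 nM and TGFB1 in AMO1 from -0.52 to 0.17.

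The response of the lines was compared as the change in XG1 minus that in AMO1. For GDF11 it was 1.77 ± 0.26 (SE) at 1000 nM (limma, adjusted p = 0.000158) and 1.20 ± 0.26 at 100 nM (limma, adjusted p = 0.0111). With the relative scale it was 1.06 (limma, adjusted p = 0.00906) and 0.94 (limma, adjusted p = 0.0264). For TGFB1 it was 1.06 ± 0.35 at 1000 nM (limma, adjusted p = 0.0254) and 0.31 at 100 nM (limma, adjusted p = 0.668). Genes with a higher response in XG1 made up 32.8% at 1000 nM and 5.37% at 100 nM, and 8.47% and 5.94% on the relative scale. The TGFB1 difference at 1000 nM was 0.45 on the relative scale (limma, adjusted p = 0.435) and 1.06 with no filter (limma, adjusted p = 0.0657), and its call ended there. It also ended without AMO1 DMSO replicate 3 or AMO1 1000 nM replicate 2 (limma, adjusted p = 0.0693 and 0.0571), and without XG1 DMSO replicate 2 or XG1 1000 nM replicate 1 (limma, adjusted p = 0.0745 and 0.0732). For GDF15 and INHBE, whose response was used in the choice, the line difference is a description. It was -0.06 for GDF15 and 2.94 for INHBE at 1000 nM, and 0.86 and 2.38 at 100 nM. On the relative scale GDF15 stood at -0.90 and INHBE at 2.55 at 1000 nM.

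In DMSO, GDF15 and INHBE stood at different levels in the lines, given as a description. GDF15 was higher in XG1 than in AMO1, at 103 ± 17.6 against 55.0 ± 7.5 FPKM (SD, n = 3 each), a log2 difference of 0.89 ± 0.18 (SE). INHBE was lower in XG1, at 9.61 ± 1.39 against 28.9 ± 3.71 FPKM (SD, n = 3 each), a difference of -1.50 ± 0.18 (SE). The groups of the lines did not overlap for either gene. Of the tested ligands, TGFB1 differed by 0.17 (limma, adjusted p = 0.557) and GDF11 by -0.28 (limma, adjusted p = 0.197). GDF11 passed on the relative scale, at -0.52 (limma, adjusted p = 0.0158). Such differences were common between the lines: 45.0% of 12792 genes were higher and 19.8% lower in XG1, and 38.3% and 28.0% on the relative scale. The median gene differed by 0.42.

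Groups were ordered by mean level on the deposited scale. GDF15 ran from XG1 1000 nM and XG1 100 nM, which overlapped, to AMO1 1000 nM and XG1 DMSO, which overlapped. AMO1 100 nM and AMO1 DMSO followed. INHBE ran the other way in AMO1: AMO1 DMSO was highest, followed by XG1 DMSO, by XG1 1000 nM and XG1 100 nM, which overlapped, and by AMO1 100 nM and AMO1 1000 nM. GDF11 ran from XG1 1000 nM through XG1 100 nM, AMO1 DMSO, XG1 DMSO and AMO1 100 nM, each overlapping the next, to AMO1 1000 nM, which stood apart. For TGFB1 all neighbours overlapped except AMO1 1000 nM, which was lowest.

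Within a library, the ratio of the GDF15 value to the INHBE value does not depend on how the library was scaled. In AMO1 it was 1.65 to 2.09 in DMSO, 51.8 to 72.7 at 100 nM and 157 to 343 at 1000 nM. In XG1 it was 10.4 to 11.0 in DMSO, 79.7 to 88.1 at 100 nM and 55.8 to 106 at 1000 nM. The ratio separated all inhibitor libraries from DMSO in each line, and in AMO1 it also separated the doses. Since both genes were chosen for this behaviour, the ratio is a description.

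The stress regulators known to act on GDF15 or INHBE mostly fell in AMO1, as did most genes. Of 19 fitted regulators, 17 fell and 0 rose at 1000 nM by limma, with 0 higher at an unadjusted p under 0.05 as well (median -0.98, against -0.77 for all genes). Of all fitted genes, 65.7% fell and 2.51% rose. Relative to the typical gene, 10 fell and 2 rose (median -0.31, against 0.02 for all genes), where 24.2% of all genes fell and 24.0% rose; the 2 that rose were CDKN1A, the p21 cell cycle inhibitor, and PPP1R15A, a phosphatase subunit of the stress response. ATF4, the central transcription factor of amino acid stress, fell from 617 ± 24.2 to 150 ± 18.1 and 117 ± 27.3 FPKM (SD, n = 3 each), with log2 changes of -2.04 at 100 nM and -2.42 at 1000 nM. DDIT3, which encodes CHOP, fell from 94.1 to 41.2 and 38.5 FPKM. CEBPB, a partner factor, fell from 99.2 to 14.2 FPKM at 1000 nM, and TRIB3, an ATF4-induced pseudokinase, from 105 to 16.7 FPKM. All of these also fell on the relative scale. At 100 nM 10 of the 19 fell and 0 rose by limma, and 8 fell and 1 rose, the stress kinase gene EIF2AK3, on the relative scale. Among all genes 29.5% fell and 2.73% rose at 100 nM, and 17.1% and 14.0% on the relative scale. GDF15 was higher in AMO1 in the same libraries in which ATF4 and DDIT3 messenger RNA was lower. Whether these changes are linked was not tested.

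In XG1, 5 of 18 fitted regulators fell at 1000 nM and 0 rose by limma, and 5 fell and 1, PPP1R15A, rose on the relative scale. Among all genes 13.2% fell and 3.69% rose, and 10.3% and 9.57% on the relative scale. At an unadjusted p under 0.05 the deposited scale gave 6 lower and 0 higher. Those that fell were ATF4, DDIT3, TRIB3, CEBPG, a partner of ATF4, and XBP1, a secretory stress factor, of which CEBPG and XBP1 were named after their values were seen. ATF4 fell from 174 to 85.7 and 79.1 FPKM, with changes of -1.05 at 100 nM and -1.13 at 1000 nM, and DDIT3 from 49.1 to 25.1 FPKM at each dose. At 100 nM 5 regulators fell, with EGR1 in place of TRIB3, where 10.0% of all genes fell. EGR1, an immediate early factor, fell from 95.6 to 51.3 FPKM at 100 nM and stood at 99.5 FPKM at 1000 nM. In AMO1 EGR1 fell from 10.7 to 5.25 FPKM at 1000 nM. That change was -0.92 on the deposited scale and -0.06 on the relative scale (limma, adjusted p = 0.746). At 100 nM EGR1 stood at 4.93 FPKM in AMO1, a change of -0.98 on the deposited scale (limma, adjusted p = 0.00182). It was -0.59 on the relative scale (limma, adjusted p = 0.00681).

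MDM2 and CDKN1A, also of this list, were named after their values were seen, as were EIF2AK3 and PPP1R15A. MDM2, a ubiquitin ligase, fell in AMO1 from 94.3 to 22.5 FPKM at 1000 nM and differed by -0.42 in XG1 (limma, adjusted p = 0.136). CDKN1A, the cell cycle inhibitor, stood at 162 FPKM in DMSO and 164 FPKM at 1000 nM in AMO1, and at 2.46 and 3.43 FPKM in XG1.

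**Figure D3:**
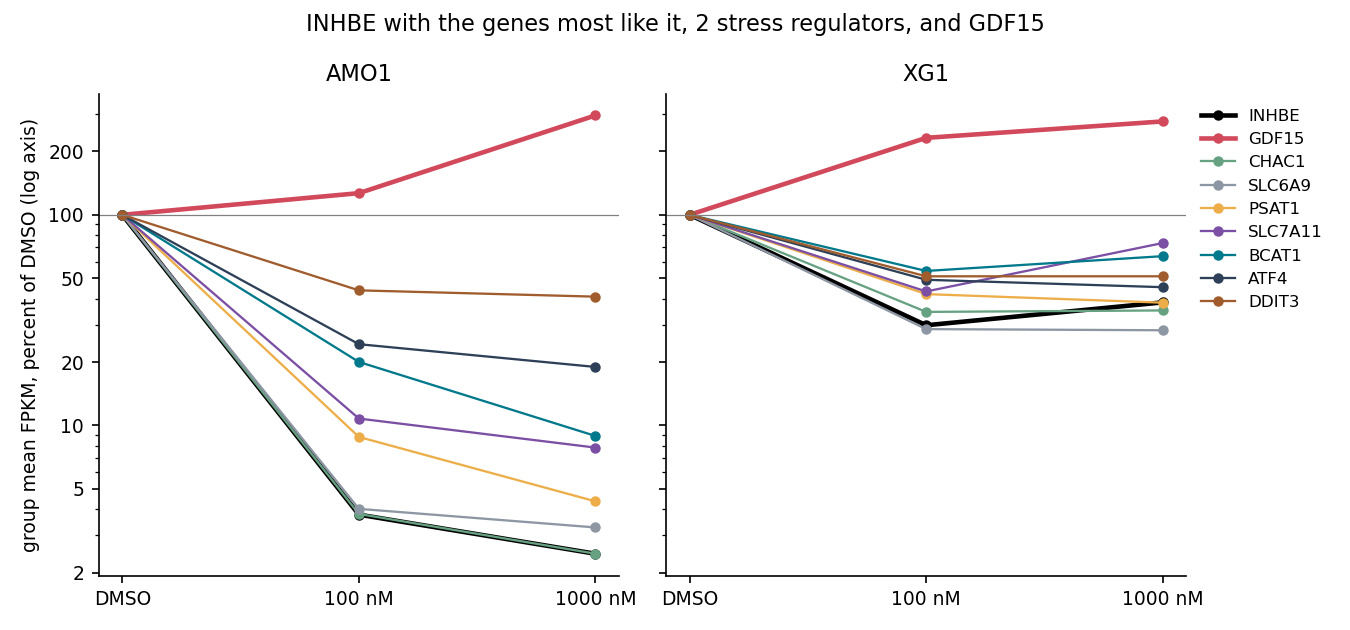
Group mean FPKM as percent of the DMSO mean of the same line (log axis) for INHBE, the 5 genes most like it, ATF4, DDIT3 and GDF15, by dose. In AMO1 at 1000 nM INHBE and CHAC1 lie on each other, at 2.46% of DMSO, while GDF15 is at 297%. In XG1 at that dose INHBE is at 38.4%, CHAC1 at 35.1% and GDF15 at 278%. The plotted genes other than GDF15 span 2.46% to 40.9% in AMO1 and 28.3% to 73.5% in XG1 at 1000 nM.

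The genes whose pattern was most like each of the 2 stress-related ligands were named by the Pearson correlation of log2(FPKM + 1) over the 18 libraries after removal of each line's mean, among 9647 genes. The points share libraries and their scaling, and no test was made. For INHBE they were CHAC1, a glutathione-degrading enzyme (r = 0.988), SLC6A9, a glycine transporter (r = 0.982), PSAT1, an enzyme of serine synthesis (r = 0.979), SLC7A11, the cystine transporter (r = 0.977), and BCAT1, a branched-chain aminotransferase (r = 0.966). CHAC1 stood at 62.2, 2.36 and 1.53 FPKM in AMO1 and at 9.42, 3.26 and 3.31 FPKM in XG1 at DMSO, 100 nM and 1000 nM. PSAT1 stood at 217, 19.1 and 9.45 FPKM in AMO1 and at 139, 58.6 and 53.4 FPKM in XG1. On the deposited scale 19 genes had r over 0.95 for INHBE and none did for GDF15. With the relative scale these counts were 15 and 1.

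For GDF15 the leading genes were PDCD4-AS1, an antisense transcript (r = 0.901), SLC6A8, the creatine transporter (r = 0.891), GADD45B, a stress-inducible growth arrest gene (r = 0.875), ZMAT3, a zinc finger RNA-binding protein (r = 0.868), and LOC100505942 (r = 0.856). GADD45B stood at 67.9, 102 and 135 FPKM in AMO1 and at 6.52, 14.2 and 16.1 FPKM in XG1. ZMAT3 stood at 2.43, 5.49 and 8.52 FPKM in AMO1 and at 14.5, 19.7 and 28.6 FPKM in XG1. PDCD4-AS1 lies antisense to another gene, whose reads cannot be told apart from its own here. In AMO1 in DMSO PDCD4-AS1 stood at 0.539 FPKM and LOC100505942 at 0.407 FPKM. With the relative scale, an alternative chosen after the data were seen, GADD45B stayed among the first 5 for GDF15 (r = 0.938), and CHAC1, PSAT1 and SLC6A9 stayed among the first 5 for INHBE. GDF15 and INHBE themselves had r = -0.661, which follows from their choice.

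Few other ligands of the superfamily were expressed. Of 33 ligand genes listed, 7 were fitted in AMO1 and 10 in XG1, the 4 chosen genes included. Of the other 3 in AMO1, BMP6 and BMP8B, both bone morphogenetic proteins, fell by 0.69 and 0.64 at 1000 nM (limma, adjusted p = 0.0150 and 0.0173). At that dose 65.7% of all genes fell. Neither passed on the relative scale (-0.04 and -0.07) or with no filter (limma, adjusted p = 0.0814 and 0.0912). The BMP6 call ended without DMSO replicate 3 or 1000 nM replicate 2 (limma, adjusted p = 0.0668 and 0.0673), and that of BMP8B without DMSO replicate 2 or 1000 nM replicate 2 (limma, adjusted p = 0.0538 and 0.0793). Of the other 6 in XG1, LEFTY2, an inhibitor of Nodal signalling, fell by 1.52 at 1000 nM (limma, adjusted p = 0.0267), from 5.20 to 1.21 FPKM. The LEFTY2 call ended without DMSO replicate 2 or 3 (limma, adjusted p = 0.0634 and 0.106), without 1000 nM replicate 2 or 3 (limma, adjusted p = 0.0860 and 0.0909), with a pseudocount of 0.1 (limma, adjusted p = 0.0528) and with no filter (limma, adjusted p = 0.131). LEFTY2 also fell on the relative scale, and 0 of the 6 rose on either scale. Of all genes in XG1 at 1000 nM, 13.2% fell and 3.69% rose, and 10.3% and 9.57% on the relative scale. INHBC, the subunit gene next to INHBE, had group means of at most 0.245 FPKM.

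Receptors were mostly low. In XG1, 0 of 8 fitted passed by limma at 100 or 1000 nM on either scale. At most 1 was lower and 0 were higher at an unadjusted p under 0.05. Of all genes in XG1, 13.2% fell and 3.69% rose at 1000 nM, and 10.0% and 2.48% at 100 nM. On the relative scale 10.3% fell and 9.57% rose at 1000 nM, and 7.25% and 7.31% at 100 nM. In AMO1, 2 of 6 fell at 1000 nM, against 65.7% of all genes. RGMB, a BMP co-receptor, fell by 0.79, and ACVR1, a type I receptor, fell by 0.60. The ACVR1 call ended with no filter (limma, adjusted p = 0.115) and without DMSO replicate 3 or 1000 nM replicate 1 or 3 (limma, adjusted p = 0.0778, 0.0632 and 0.0706). Relative to the typical gene 0 fell and 2 rose, ACVR1B, the activin type I receptor, by 0.60, and BMPR2, the BMP type II receptor named after its value was seen, by 0.73, on a scale where 24.0% of all genes rose. TGFBR1 stood at 0.953 FPKM in AMO1 and 16.8 FPKM in XG1 in DMSO, and TGFBR2 at 0.854 and 0.783 FPKM. ACVR2A stood at 1.06 and 0.780 FPKM and ACVR2B at 0.966 and 4.83 FPKM. GFRAL, the receptor of GDF15, had group means of at most 0.127 FPKM.

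Among the SMADs and their nuclear partners, 9 of 15 fell in AMO1 at 1000 nM and 0 rose, against 65.7% and 2.51% of all genes. The median was -0.57 against -0.77 for all genes. SMAD2 fell by 0.67 and SMAD3 fell by 0.99, and SMAD4, the common SMAD, fell by 1.13, from 4.04 to 1.29 FPKM. TGIF2, a co-repressor, fell by 1.34. Relative to the typical gene SMAD4 alone of the 15 fell, at -0.45 (limma, adjusted p = 0.0170), where 24.2% of all genes fell. On that scale 3 of the 15 rose, against 24.0% of all genes. They were SKIL, FOXH1 and USP9X, named after their values were seen. At 100 nM 3 of the 15 passed as lower in AMO1, against 29.5% of all genes, and 0 to 2 did so when 1 library was left out. The SMAD3 call there (limma, adjusted p = 0.0400) ended without any 1 of the 6 libraries (limma, adjusted p = 0.0725 to 0.146). The SMAD4 call (limma, adjusted p = 0.0144) ended without DMSO replicate 2 or 100 nM replicate 1 (limma, adjusted p = 0.0725 and 0.0632). In XG1, 1 of 18 fell at 1000 nM, against 13.2% of all genes. USP15, a deubiquitinase of the receptor complex, fell by 1.00 (limma, adjusted p = 0.0295), from 16.0 to 7.54 FPKM. This call ended without any 1 of the 6 libraries of the comparison (limma, adjusted p = 0.0569 to 0.0885) and with no filter (limma, adjusted p = 0.0973). At 100 nM USP15 alone of the 18 fell, by 1.29 (limma, adjusted p = 0.0131), against 10.0% of all genes. That call held without any 1 of its 6 libraries (limma, adjusted p = 0.00186 to 0.0480) and on the relative scale (limma, adjusted p = 0.0155). It ended with no filter (limma, adjusted p = 0.0525). SMAD7, the inhibitory SMAD, differed by -0.53 in AMO1 (limma, adjusted p = 0.0810) and by 0.06 in XG1 (limma, adjusted p = 0.933).

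Of the genes for ligand processing, storage and inhibition, 4 of 9 fell in AMO1 at 1000 nM and 0 rose. Among all genes 65.7% fell and 2.51% rose. Relative to the typical gene, 4 of the 9 rose and 2 fell, against 24.0% and 24.2% of all genes. NRROS and LTBP3, which hold latent TGF-beta, fell from 17.1 to 4.22 FPKM and from 14.7 to 3.98 FPKM, and both also fell by 0.93 and 0.81 on the relative scale. FURIN, the convertase, differed by -0.24 in AMO1 (limma, adjusted p = 0.312) and rose by 0.65 on the relative scale (limma, adjusted p = 0.00177). FURIN stood at 51.6 and 52.7 FPKM in XG1 in DMSO and at 1000 nM. There 0 of 14 genes of this list passed by limma, and 0 at an unadjusted p under 0.05. Of all genes in XG1, 13.2% fell and 3.69% rose at that dose. Relative to the typical gene, 2 of the 14 rose there, against 9.57% of all genes. They were the convertase PCSK7 and the integrin subunit ITGAV, named after their values were seen. At 100 nM 3 of the 9 fell in AMO1, among them NRROS and LTBP3, near the 29.5% of all genes. That count was 1 to 3 when 1 library was left out, and the NRROS call ended without DMSO replicate 2 or 100 nM replicate 1 (limma, adjusted p = 0.0853 and 0.0641).

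Of the transcriptional targets of the pathway, 1 of 9 rose and 2 fell in AMO1 at 1000 nM, against 2.51% and 65.7% of all genes. ID1 and ID3, inhibitors of differentiation induced by BMP signalling, fell from 50.2 to 17.5 FPKM and from 146 to 46.1 FPKM, on both scales, whereas ID2 of the same family rose from 31.9 to 50.3 FPKM, by 0.58 (limma, adjusted p = 0.0462). The ID2 call ended with a pseudocount of 0.1 (limma, adjusted p = 0.0503), no filter (limma, adjusted p = 0.126), a replicate block (limma, adjusted p = 0.0600) or a fit of the 2 groups alone (limma, adjusted p = 0.0684). It also ended without any 1 library of the comparison other than 1000 nM replicate 2 (limma, adjusted p = 0.0726 to 0.158). Relative to the typical gene, 6 of 9 rose and 2 fell, against 24.0% and 24.2% of all genes. On the deposited scale ID1 and ID3 fell in AMO1 at 100 nM as well, and no other gene of the 9 passed. At that dose 29.5% of all genes fell and 2.73% rose. On the relative scale 4 of the 9 rose and 2 fell at 100 nM, against 14.0% and 17.1% of all genes. The ID3 call at 100 nM ended without DMSO replicate 2 or 100 nM replicate 2 (limma, adjusted p = 0.0584 and 0.0507). In XG1, 2 of 12 rose and 0 fell at 1000 nM by limma, with 4 higher and 0 lower at an unadjusted p under 0.05, against 3.69% and 13.2% of all genes by the adjusted p. CYR61, a matricellular protein, rose from 2.53 to 10.6 FPKM, by 1.73 (limma, adjusted p = 0.000543), and JUNB, an AP-1 subunit, from 34.8 to 83.1 FPKM, by 1.23 (limma, adjusted p = 0.000220). JUNB differed by 0.36 in AMO1 (limma, adjusted p = 0.174) and rose there by 1.31 on the relative scale. In XG1 at 1000 nM, 3 of the 12 rose and 0 fell on the relative scale, against 9.57% and 10.3% of all genes. At 100 nM in XG1, 2 of the 12 rose and 1 fell on each scale. Among all genes at that dose 2.48% rose and 10.0% fell, and 7.31% and 7.25% on the relative scale. With 1 library left out, 0 to 1 of the 12 fell at 100 nM.

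**Figure D4:**
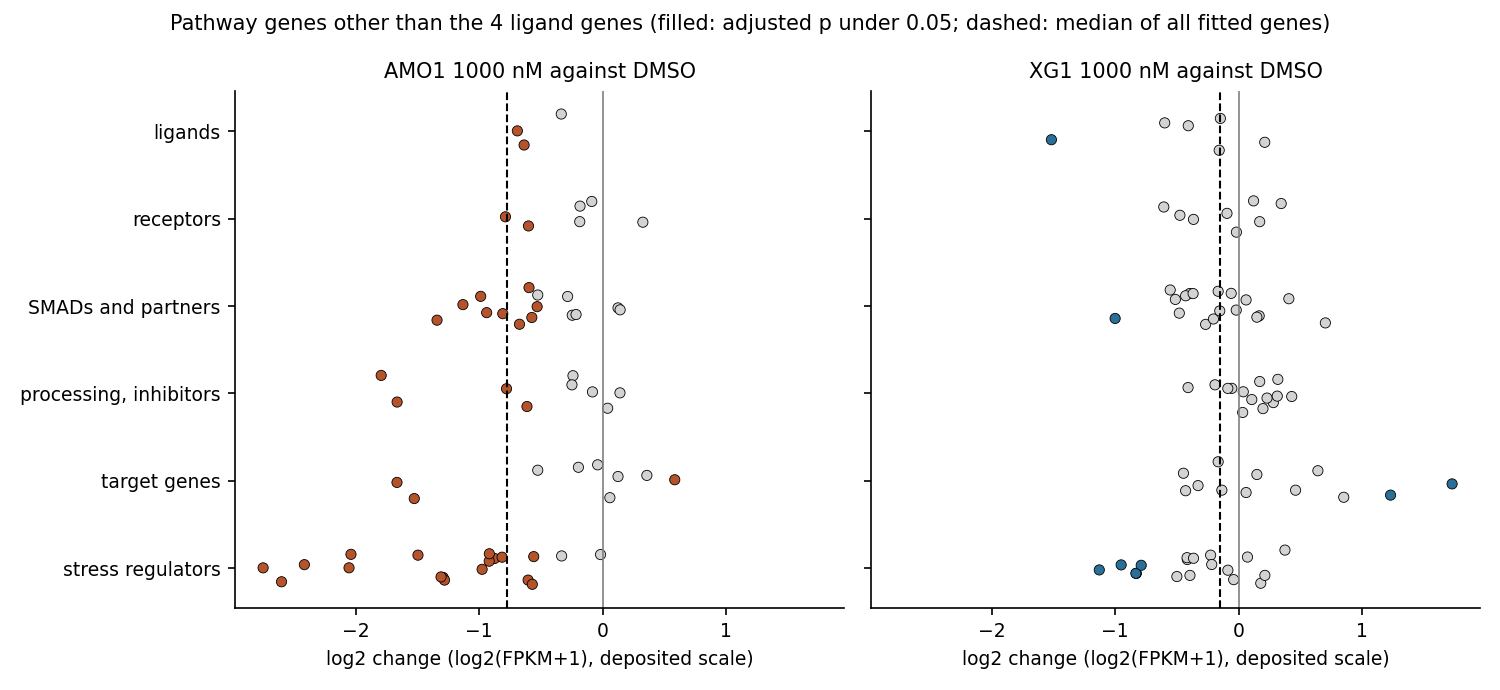
Log2 change at 1000 nM against DMSO (log2(FPKM + 1), deposited scale) of the fitted genes of the 6 lists, without the 4 chosen ligand genes, in AMO1 and XG1; each point is a gene, filled where the adjusted p is under 0.05, and the dashed line is the median of all fitted genes (-0.77 and -0.15). In AMO1 the stress regulators reach -2.75, and in XG1 most points of all lists lie near the dashed line.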

How the data were processed

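QuantSeq 3' libraries were made from total RNA of 18 samples. The submitters' processing notes name HISAT2, Cuffnorm and hg19. Versions, annotation and strand use are not given in the sources used here. Values were deposited by the authors as FPKM per gene symbol, with 1 table per library. The nearly constant spike-in sums are those of values scaled to the ERCC spike-ins, a step the labels do not record, and a small floor (0.0711 to 0.158 FPKM) stands in place of 0. Single reads could not be recovered from the values, so depth is unknown and no count test was run.

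Genes with at least 1 FPKM in at least 3 libraries were tested on log2(FPKM + 1) with limma 3.58.1 (R 4.3.3, trended variance), the 9 libraries of a line in 1 fit and all 18 for comparisons between lines, with Benjamini-Hochberg adjustment over all fitted genes and a threshold of 0.05. The pseudocount makes changes of low genes smaller. Alternatives were a pseudocount of 0.1, no filter, the relative scale, a replicate block, 2-group fits and leaving out each library. The fits were tested on simulated data. Named genes were the 4 ligand genes, for each list and line up to 2 largest rises and falls at 1000 nM past the threshold, a fixed set of pathway genes, and the 5 genes most correlated with GDF15 and with INHBE. The members and lists were chosen with earlier results of these data known. The levels of GDF15 and INHBE in DMSO had been planned as a test and are given as a description, since those libraries entered the choice. The labels do not say whether replicate numbers pair the samples, and the main fits did not pair them. Promoter letters are from RefSeq, GRCh38.p14, and no coordinates were moved between builds. 1 named gene of the stress regulator list is not reported here.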

Additional observations from a re-analysis of the deposited data

Results flagged for a closer look

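GDF11 and TGFB1 drew attention because the lines responded differently to the inhibitor by a test of the difference itself (change in XG1 minus change in AMO1, limma). GDF11 differed by 1.77 at 1000 nM (adjusted p = 0.000158) and by 1.20 at 100 nM (adjusted p = 0.0111), with 3 of 3 AMO1 libraries below and 3 of 3 XG1 libraries above their DMSO groups at each dose. These calls held on the relative scale, where the AMO1 change was near 0 (-0.06 at 1000 nM). The overlap of GDF11 with SARNP and the erythroid markers of the libraries labelled XG1 accompany both values, and their part was not tested. TGFB1 differed by 1.06 at 1000 nM (limma, adjusted p = 0.0254), and this call ended on the relative scale and without any 1 of 4 libraries. The line differences of GDF15 and INHBE were not tested, since both genes were chosen on their response.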

How the results depend on the processing

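Of 249 alternative values for the 21 tested results on TGFB1, GDF11 and INHBE in XG1, 218 kept direction and side of the threshold, 23 lost the call, 2 gained one and 6 changed sign, all but 1 of them in results that passed under neither setting. With no filter, TGFB1 in AMO1 at 1000 nM (-0.52, adjusted p = 0.163), GDF11 in XG1 at 100 nM (0.73, adjusted p = 0.108) and the TGFB1 line difference at 1000 nM (1.06, adjusted p = 0.0657) lost their calls in limma, and 1944 genes passed in AMO1 at 100 nM (3386 with the filter), 521 in AMO1 between doses (2482), 1153 and 674 in XG1 at 1000 and 100 nM (1994 and 1474), 9 in XG1 between doses (46) and 15163 between lines in DMSO (8292). On the relative scale TGFB1 in AMO1 at 1000 nM reversed to 0.17, TGFB1 in AMO1 at 100 nM to 0.24, GDF11 between doses in AMO1 to 0.040 and TGFB1 between lines in DMSO to -0.074. GDF11 in AMO1 at 1000 nM stood at -0.059, GDF11 between lines in DMSO reached -0.52 and passed, and the TGFB1 line difference at 1000 nM was 0.45; counts were 627 in AMO1 and 115 in XG1 between doses, and 2136 (4390 as deposited) and 1228 (797) for line differences at 1000 and 100 nM. In fits of the 2 groups alone GDF11 in AMO1 at 100 nM (-0.47, adjusted p = 0.0364) passed in limma and GDF11 in XG1 at 100 nM (0.73, adjusted p = 0.0765) did not, and 1358 and 8 genes passed between doses in AMO1 and XG1. Deviations from group means correlated at -0.178 to 0.125 in AMO1 and -0.0441 to 0.157 in XG1 between same-numbered replicates. Between other replicates they correlated at -0.171 to 0.168 and -0.137 to 0.0932. These ranges overlap, so they cannot decide whether the numbers pair the samples. With the replicate number as a block, TGFB1 in AMO1 at 1000 nM was -0.52 (limma, adjusted p = 0.0611). GDF11 in XG1 at 100 nM was 0.73 with that block (limma, adjusted p = 0.0812). In those fits 1461 genes passed in AMO1 between doses and 513 for the line difference at 100 nM. The cause of these changes was not tested.

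Leaving out each library in turn gave -0.67 to -0.34 for TGFB1 in AMO1 at 1000 nM, -0.24 to 0.11 for TGFB1 in AMO1 at 100 nM, 0.83 to 1.06 for GDF11 in XG1 at 1000 nM, 0.64 to 0.89 for GDF11 in XG1 at 100 nM, 0.85 to 1.30 for the TGFB1 line difference at 1000 nM, and -0.25 to 0.069 for the untested GDF15 line difference at 1000 nM, which changed sign in 5 fits. Counts ranged from 1812 to 2613 in AMO1 at 100 nM, 519 to 3437 in AMO1 between doses, 1047 to 1564 in XG1 at 1000 nM, 571 to 1876 in XG1 at 100 nM, 2 to 82 in XG1 between doses and 430 to 1136 for the line difference at 100 nM. Of the 19 regulators in AMO1 at 1000 nM, 14 to 17 fell in these fits, and of the 18 in XG1, 4 to 5. Depth is unknown, so no counting error can be given for genes near 1 FPKM such as INHBE in AMO1.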
